A study of Brassica napus with 10 samples.

Results

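Embryogenic structures sorted from *Brassica napus* microspore cultures with a high dose of trichostatin A (TSA) were compared with structures from cultures with a low dose. The comparison takes 7 of the 10 libraries of the series, chosen by their labels alone. They are 4 libraries at 0.05 µM TSA (HS + TSA low) and 3 libraries at 0.5 µM TSA (HS + TSA high), and 3 libraries of pollen gave the reference level. All 3 groups carried the pLEC1:LEC1-GFP reporter in the DH12075 background, and all were sampled on day 3 of culture. Both HS + TSA groups started from late unicellular microspores and received heat stress (HS), and their GFP-positive structures were sorted by flow cytometry. The pollen cultures, which started from late unicellular microspores and bicellular pollen, were kept at 18 °C and were not sorted. Each library was made from pools of cells that added up to 150000. The sort selected LEC1 reporter signal at both doses, so the libraries describe the structures that passed the gate and not the number formed. Per the study's description, such cultures hold more than one type of embryogenic structure, including calli and embryos inside the pollen wall.

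TSA inhibits histone deacetylases, the enzymes that take acetyl groups off histones, and acetylated histones are commonly found at active genes. In cultured microspores of *B. napus*, heat stress turns part of the cells from pollen development to embryo development, and TSA added with the stress raises the share of cells that divide as embryogenic structures. LEC1 is a transcription factor subunit of embryos, used here as the mark of embryo identity. *B. napus* is an allotetraploid with an A subgenome of 10 chromosomes and a C subgenome of 9, and many genes have a copy in each. The gene IDs are not paired with gene names in the sources used here, apart from the study's list of endoplasmic reticulum (ER) stress genes. The labelled cell types could therefore not be checked against markers, and the dose effect is described by level, structure and place of the genes.

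After genes with low counts were removed, 45264 of 59458 genes were tested. Total counts per library were 51838498 to 61458274 in HS + TSA low, 58468526 to 67884748 in HS + TSA high and 93367646 to 109105528 in pollen. Levels are given as CPM, each gene's share of the counts of its library, so that a fall in RNA per cell and a fall in the number of cells of a type cannot be told apart. Libraries of HS + TSA low did not form an even group. Libraries 1 and 4 correlated by 0.9909 over log2 CPM, and other pairs within that group correlated by 0.9413 to 0.9669. Between libraries 1 and 4 the counts still differed by more than sampling noise, with a median chi-square per gene of 2.37 in read pairs where noise alone gives 0.455. They were counted as 2 libraries, and the counts of called genes are also given without both. HS + TSA low libraries 1 and 4 and HS + TSA high library 1 also shared a low level over 2 stretches of chromosomes, described with the chromosomes.

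At the high dose 2236 genes were higher (4.94% of the genes tested) and 2473 were lower (5.46%) by edgeR's quasi-likelihood test at an adjusted p of at most 0.05. Called genes made up 10.4% of the genes tested. The median log2 fold change of the higher genes was 1.3, and 1422 of them changed at least 2-fold. The median of the lower genes was -1.14, and 1446 of them changed at least 2-fold. With genes at 0 in every library of a dose set to a bound of 3 counts over that group, 252 genes were at least 16-fold higher and 274 at least 16-fold lower. Counts were 0 in every HS + TSA low library for 82 of the higher genes and 0 in every HS + TSA high library for 129 of the lower genes. The libraries of the doses did not overlap for 2109 of the higher and 2409 of the lower genes, while over all genes tested 11.9% lay wholly above and 12.1% wholly below.

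The higher genes made up 4.77% to 5.12% of all CPM in HS + TSA low libraries and 9.21% to 10.7% in HS + TSA high libraries, against 5.59% to 6.01% in pollen. The lower genes made up 11.2% to 13.3% in HS + TSA low, 5.95% to 6.72% in HS + TSA high and 12% to 13.3% in pollen. For both lists the share in HS + TSA low was thus nearer to that in pollen, and the high dose stood apart. Since the lists were chosen on the dose contrast, the shares in the dose groups are a description and carry no test. With the replicate number of all 10 libraries as a block, which took library pairs into account and included pollen, 1169 genes were higher and 1667 lower by edgeR. Without HS + TSA low libraries 1 and 4 the counts were 667 higher and 1366 lower, and with HS + TSA high library 1 also left out they were 2070 higher and 2640 lower.

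The gene with the lowest p among the higher genes was C04p33830.1_BnaDAR, on chromosome C04 from 34637249 to 34639887, with 6 exons. Its level was 14.0, 13.6, 12 and 15.5 CPM in HS + TSA low libraries 1 to 4 and 58.3, 69.9 and 67.9 CPM in HS + TSA high libraries 1 to 3. Every HS + TSA high library lay above every HS + TSA low library and every pollen library, which had 13.9, 17.6 and 16 CPM. The low dose was thus near the pollen level, and the log2 fold change between the doses was 2.25 ± 0.16 (SE, with an edgeR adjusted p of 0.000123). The gene with the largest fold increase was A07p44040.1_BnaDAR, on chromosome A07 from 28782966 to 28784665, with 2 exons. It had 0.265, 0, 0 and 0.0722 CPM in HS + TSA low and 2.83, 53.7 and 28.6 CPM in HS + TSA high, with 0 to 0.0608 CPM in pollen. HS + TSA high library 1 was the lowest of its group by more than 10-fold, and its level still exceeded that of every low-dose library. Its log2 fold change of 8.41 ± 1.35 (SE, with an edgeR adjusted p of 0.00803) lost the call with the replicate block (adjusted p = 0.0689 from edgeR) and with limma-voom (adjusted p = 0.228). The size of that fold is uncertain, since the low-dose level rests on 14 counts in library 1 and 4 in library 4. It was 10.15 on the log2 scale without low library 1, and without both the remaining low-dose libraries held 0 counts.

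Of the genes lower at the high dose, C03p75120.1_BnaDAR had the lowest p and lies on chromosome C03 from 57842414 to 57844049, with 3 exons. Its level was 16, 15.7, 21.5 and 15.3 CPM in HS + TSA low and 0.343, 0.792 and 0.297 CPM in HS + TSA high. In pollen it had 56.6, 77.4 and 38.2 CPM, so that the level stepped down from pollen to the low dose and again to the high dose without overlap. The log2 fold change between the doses was -5.17 ± 0.40 (SE, with an edgeR adjusted p of 0.000217). The largest fall was that of C09p74390.1_BnaDAR, a gene of 1 exon on chromosome C09 from 65119855 to 65120476. It had 22.8, 7.91, 18.5 and 13.1 CPM in HS + TSA low and 0 counts in each HS + TSA high library, with 37.0, 65.8 and 25.1 CPM in pollen. Against a floor of 3 counts over the HS + TSA high group (0.0158 CPM) it was at least 987-fold lower at the high dose (adjusted p = 0.000619 from edgeR). Both lower genes kept their call in each of the 16 alternative settings run for them.

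**Figure D1:**
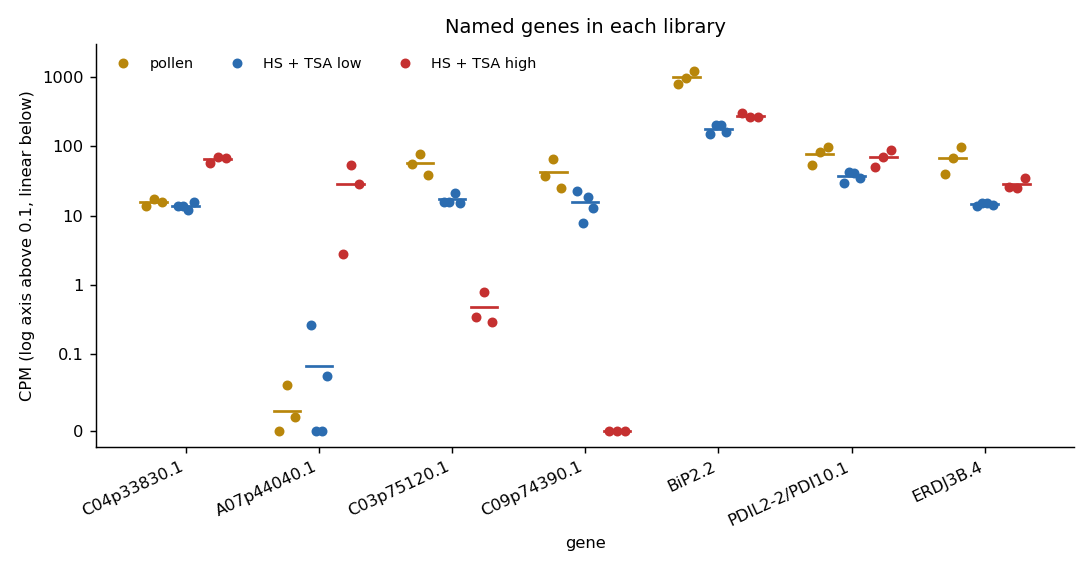
Level of the 7 named genes in each library, in CPM on an axis that is logarithmic above 0.1 and linear below, with pollen, HS + TSA low and HS + TSA high side by side. Each point is 1 library and each bar a group mean. HS + TSA high lies at 58.3 to 69.9 CPM for C04p33830.1, above the 12 to 15.5 CPM of HS + TSA low, and at 0 for C09p74390.1. For the ER genes on the right, most HS + TSA high libraries lie between the low dose and pollen.

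The study's ER stress list covers the sensors and regulators that answer unfolded proteins, and the chaperones and enzymes that fold secreted proteins. Among the 52 list genes with counts, 3 were higher and 0 lower at the high dose by edgeR, or 5.77% higher against 4.94% over all genes tested. BiP2.2 (A03p20560.1_BnaDAR), an HSP70 chaperone of the ER lumen on chromosome A03, had 149, 204, 201 and 159 CPM in HS + TSA low and 299, 262 and 261 CPM in HS + TSA high. Pollen had 787 to 1210 CPM, so the high dose lay between the low dose and pollen with no overlap. ERDJ3B.4 (C04p30630.1_BnaDAR), a DnaJ co-chaperone of BiP on chromosome C04, had 13.6, 15.2, 15.4 and 14.4 CPM at the low dose and 25.8, 25.5 and 34.4 CPM at the high dose, below the 40.3 to 96.9 CPM of pollen. On chromosome A10, the gene PDIL2-2/PDI10.1 (A10p03460.1_BnaDAR), whose product forms disulfide bonds in the ER, had 29.3, 43.3, 41.6 and 35.1 CPM at the low dose and 50.3, 71.4 and 89.7 CPM at the high dose. The high dose reached the range of pollen there, which was 53.2 to 99.3 CPM. For BiP2.2 the adjusted p from edgeR was 0.0352, and 0.0712 with the replicate block. Without HS + TSA low libraries 1 and 4 the adjusted p from edgeR was 0.204 for BiP2.2, 0.147 for ERDJ3B.4 and 0.187 for PDIL2-2/PDI10.1, so all 3 calls were lost. Each call was also lost without HS + TSA low library 1 or 4, or HS + TSA high library 2 or 3, singly, with adjusted p from 0.0571 to 0.123 by edgeR. ERDJ3B.4 lost its call without HS + TSA low library 2 or 3 as well, PDIL2-2/PDI10.1 without low library 3, and BiP2.2 without high library 1 or pollen library 2. With limma-voom, ERDJ3B.4 lost its call too (adjusted p = 0.0776).

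By family, the list did not move one way. Both copies of IRE1a, a sensor of unfolded proteins in the ER membrane, had log2 fold changes of 0.40 and 0.55, and those of NAC103, a transcription factor of the response, 0.44 and 0.50. The 6 copies of CNX1, the lectin chaperone calnexin, ran from -0.71 to -0.07, and the 4 copies of SDF2, an ER protein of the stress response, from -0.77 to -0.01. None of these passed the edgeR test. The -0.71 was that of CNX1.1, a copy with means of 0.281 CPM at the low dose and 0.172 CPM at the high dose. The other copies of CNX1 ran from -0.34 to -0.07. The 5 copies of BiP2 ran from -0.11 to 1.05 and the 5 copies of ERDJ3B from -0.99 to 0.97, and the lowest and the highest value of the list lay in these families. Both were in copies of low level, with means of 1.59 CPM at the low dose and 0.796 CPM at the high dose for ERDJ3B.2. For BiP2.5 the means were 4.41 and 9.13 CPM. Copies of a family may share reads, so a difference between them is uncertain. The median over the 52 genes was -0.07, against 0.02 over all genes tested.

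The level of a gene in pollen went with the direction of its dose call. Among 4516 tested genes with a pollen mean under 0.1 CPM, 6.47% were higher and 0.996% lower at the high dose. Among 1808 genes with at least 100 CPM in pollen, 6.69% were higher and 14.8% lower. Between these ends, the share of lower genes went from 1.75% at 0.1 to 1 CPM to 4.14% at 1 to 10 CPM and 8.52% at 10 to 100 CPM, while the share of higher genes stayed between 4.28% and 4.94%. Calls in genes that pollen hardly expresses were thus mostly upward and calls in genes abundant in pollen mostly downward. A gene with no pollen counts had to reach the filter through the HS + TSA libraries, for which the 3 high-dose libraries are enough, so the higher share of the class under 0.1 CPM depends on the filter. With no filter on low counts, 2.36% of 12305 genes under 0.1 CPM were higher, below the 3.89% of all genes in that fit, and 0.317% were lower against 4.17%. The class grew from 4516 to 12305 genes with no gain in calls (291 higher and 39 lower, against 292 and 45 with the filter), so both shares fell. These shares therefore cannot decide whether the class had more or fewer calls than genes at large. Higher calls outnumbered lower calls in both fits. Abundant genes are also more easily called, and at 100 CPM and above 14.0% were lower and 6.29% higher with no filter.

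These counts leaned on single libraries. The 292 higher genes under 0.1 CPM became 125 without HS + TSA low library 1, 170 without low library 4, 116 without HS + TSA high library 2, 125 without high library 3 and 131 with the replicate block. The 268 lower genes of at least 100 CPM became 134 without low library 1, 164 without low library 3, 157 without high library 2 and 162 without high library 3. The 121 higher genes of that class became 50 without low library 1 or high library 2, 46 without high library 3 and 190 without high library 1. The 45 lower genes under 0.1 CPM became 17 without low library 1, 27 without low library 3, 24 without low library 4 or high library 3, 20 without high library 2 and 29 with the replicate block. Without HS + TSA low libraries 1 and 4, the class under 0.1 CPM had 69 higher and 16 lower genes and that of at least 100 CPM had 48 higher and 169 lower. In each of the 10 fits with 1 library left out, the share of lower genes was still above that of all genes in the most abundant class and below it in the class under 0.1 CPM. The 2 ends of the pollen scale therefore kept their order in the share of lower genes while the counts changed.

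Gene length and exon number separated the calls further. The median length of the higher genes was 1849.5 bases with 6 exons and that of the lower genes 914 bases with 4 exons, against 1378 bases and 5 exons over all genes tested. Of genes over 3000 bases, 10.6% were higher and 1.21% lower. Of genes of 501 to 1000 bases, 2.15% were higher and 10.6% lower, and of those up to 500 bases 1.39% and 9.37%. By exon number, 10.8% of the 1534 genes with at least 20 exons were higher and 1.5% lower, against 3.91% higher and 7.55% lower with 2 to 4 exons. Genes of 1 exon had 4.06% higher and 5.05% lower, and these counts changed with single libraries, as those of all genes did. Their 299 higher genes became 536 (7.28% higher, against 5.59% lower) without HS + TSA high library 1, where 7.09% of all genes were higher. They became 114 without low library 1, 178 without low library 4, 122 without high library 2, 133 without high library 3 and 130 with the replicate block. Without low libraries 1 and 4 together, 74 were higher and 168 lower.

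Within the longest class, the higher share did not climb steadily with exon number. Among genes over 3000 bases, 10.8% of the 65 genes with 1 exon, 6.43% of those with 2 to 4 exons and 11.5% of the 1126 genes with at least 20 exons were higher. The lower share still differed between short genes by exon number. It was 5.58% with 1 exon and 11.6% with 2 to 4 exons up to 500 bases, and 8.22% and 12.4% at 501 to 1000 bases, where 9.84% with 5 to 9 exons were lower. When a trend on length was taken out of each library, a setting added after the data were seen, 1624 genes were higher and 1424 lower. In that fit 3.52% of the genes with at least 20 exons were higher and 3.13% lower, so that the lean of these genes was gone. Genes of 1 exon leaned upward in it, with 4.06% higher and 2.17% lower. The pollen gradient remained there, with 5.71% higher and 0.642% lower under 0.1 CPM, and 3.87% higher and 8.41% lower at 100 CPM and above. The 165 higher genes of at least 20 exons became 103 with the replicate block, 62 without HS + TSA low libraries 1 and 4, 72 without low library 1 alone, 90 without HS + TSA high library 2 and 106 without high library 3. The 23 lower genes of that class became 9 without low library 1, 15 without low library 4, 56 without high library 1, 14 without high library 3, 12 with the replicate block and 10 without low libraries 1 and 4.

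**Figure D2:**
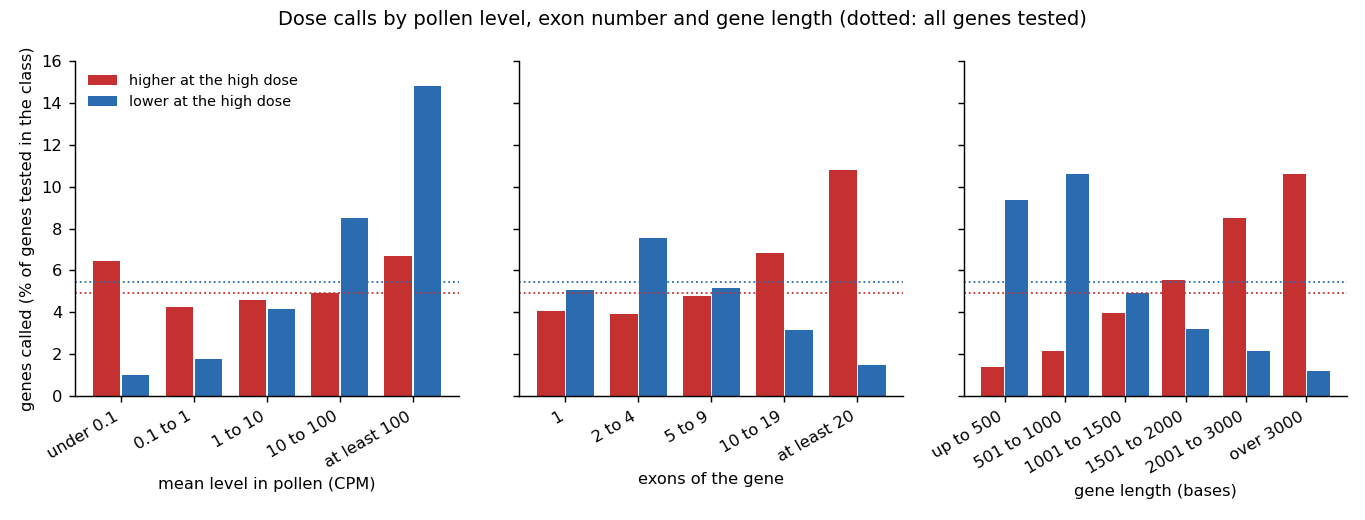
Percent of genes tested that were higher (red) or lower (blue) at the high dose, by mean CPM in pollen, by exon number and by gene length in bases. Dotted lines mark the 4.94% higher and 5.46% lower over all genes tested. The lower share climbs to 14.8% for genes abundant in pollen, and the higher share climbs to 10.6% for genes over 3000 bases.

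The length pattern was present in every library of both groups. Relative to the pollen mean, genes of 501 to 1000 bases had a median log2 ratio of 0.49, 0.45, 0.52 and 0.38 in HS + TSA low libraries 1 to 4 and 0.25, 0.11 and 0.10 in HS + TSA high libraries 1 to 3. Genes over 3000 bases had -0.48, -0.48, -0.65 and -0.43 at the low dose and -0.21, -0.30 and -0.31 at the high dose. Genes of 501 to 1000 bases thus lay above pollen and genes over 3000 bases below it at both doses, and the high dose lay nearer to pollen in both classes. Genes up to 500 bases had 0.66, 0.68, 0.73 and 0.38 at the low dose and 0.28, 0.06 and -0.03 at the high dose, so these were at the pollen level in HS + TSA high libraries 2 and 3. The gap between genes over 3000 bases and genes up to 1000 bases was -0.988 ± 0.161 log2 units (SD, n = 4) in HS + TSA low and -0.422 ± 0.034 (SD, n = 3) in HS + TSA high. The doses did not overlap (p = 0.0286 by an exact permutation over libraries, two-sided, which is the lowest value 4 against 3 libraries allow), and this measure was chosen after the values were seen. The permutation counted HS + TSA low libraries 1 and 4, which were much alike, as separate libraries. RNA quality and insert size were not among the values at hand, and their part in the length pattern was not tested.

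**Figure D3:**
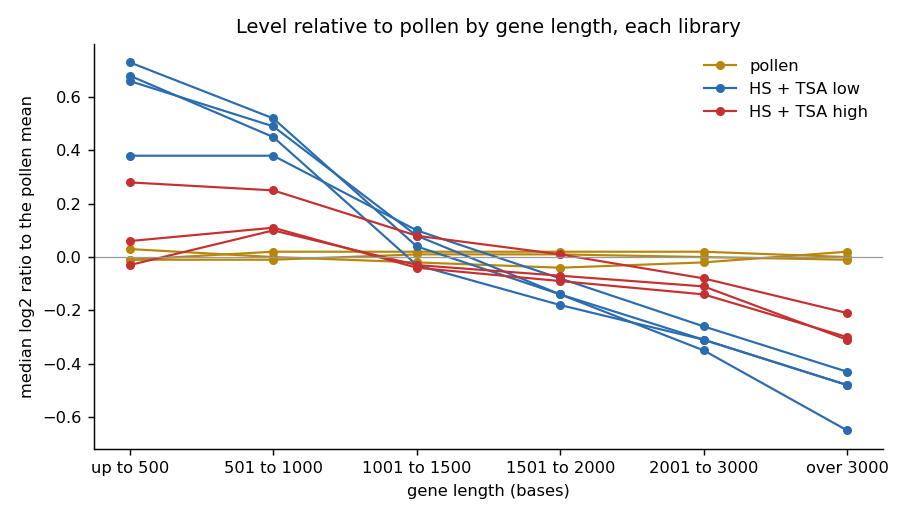
Median log2 ratio of each library to the pollen mean by gene length in bases, over genes of at least 3 CPM, with 1 line per library. HS + TSA low lines run from between 0.38 and 0.73 for the shortest genes to between -0.65 and -0.43 for the longest. HS + TSA high lines run from between -0.03 and 0.28 to between -0.31 and -0.21.

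Length and pollen level together separated the calls more than either did. Among genes of at least 100 CPM in pollen, 32.5% of those of 501 to 1000 bases were lower and 0.239% higher, while 26.1% of those over 3000 bases were higher and 3.26% lower. Among genes under 0.1 CPM in pollen, higher calls outnumbered lower calls in every length class, from 4.94% against 0.644% up to 500 bases to 9.88% against 0 for those over 3000 bases. In the class of 10 to 100 CPM in pollen, the lower share fell from 37.0% of genes up to 500 bases to 1.42% of those over 3000 bases. The most frequent lower calls were in genes up to 500 bases with at least 100 CPM in pollen, at 45.8% but of only 24 genes, and the most frequent higher calls in genes over 3000 bases of that pollen level.

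By chromosome, C02 stood apart. Of its 2151 tested genes, 20 (0.930%) were higher and 223 (10.4%) lower at the high dose. On the other 18 chromosomes of the 19, the share of higher genes ran from 3.81% to 6.13% and that of lower genes from 4.18% to 5.97%. The A subgenome had 5.47% higher and 5.37% lower genes, and the C subgenome had 4.51% higher and 5.54% lower. Relative to the pollen mean and over the 1133 genes of C02 with at least 3 CPM, the median log2 ratio was -0.16, -0.05, 0.18 and -0.16 in HS + TSA low libraries 1 to 4 and -0.53, -0.51 and -0.43 in HS + TSA high libraries 1 to 3. All HS + TSA high libraries thus lay below all HS + TSA low and all pollen libraries, and C02 was the only chromosome of the 19 whose doses did not overlap. The difference of -0.444 had the lowest p that the design can give (0.0286, exact permutation, two-sided), and over 19 chromosomes the adjusted p was 0.543, so the difference did not pass.

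The fall was spread along most of C02. Genes between 18036 and 44952439 on C02 had median ratios to pollen of 0.03, 0.00, 0.14 and 0.03 in HS + TSA low and -0.37, -0.39 and -0.30 in HS + TSA high. This stretch held 1564 tested genes, 18 (1.15%) higher and 211 (13.5%) lower, against 4.94% and 5.46% over all genes tested. Of its 926 genes with at least 3 CPM, 76.2% had a log2 fold change below 0, with a median of -0.43 and quartiles of -0.79 and -0.02. In each of the 9 windows of 5 Mb that make it up, the medians of all HS + TSA high libraries lay below those of all HS + TSA low libraries. Of 163 such windows with at least 20 genes on the other chromosomes, 10 showed this order, as did 4 of 7 smaller windows. The end of this stretch of C02 was set after the values were seen, and in the C02 windows beyond it the doses overlapped. That all 9 windows showed the order follows in part from this choice, and the comparison with other chromosomes carries no test. Over the whole stretch the low dose was near the pollen level, but by window its mean ratio to pollen ran from -0.07 to 0.34, and that of the high dose from -0.57 to -0.13. The 223 lower genes of C02 became 122 without HS + TSA low library 1, 119 without HS + TSA high library 2 and 145 without high library 3. In all 10 fits with 1 library left out, the lower share of C02 (5.53% to 11.4%) exceeded that of all genes in the same fit, and the higher share (0.279% to 1.81%) stayed below it. The 20 higher genes became 5 without low libraries 1 and 4, 8 with the replicate block and 6 to 39 in these fits, with 6 without low library 1, 9 without low library 4, 39 without high library 1, 8 without high library 2 or 3 and 12 without pollen library 2.

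On the distal part of C02 and the first part of C04, levels differed by library more than by dose. These stretches and those of A07 and A06 below were picked after their values were seen and carry no test. On C02 between 47018227 and 62296526, the median ratios to pollen were -2.91, -0.33, 0.38 and -2.96 in HS + TSA low and -3.11, -1.49 and -1.13 in HS + TSA high. On C04 between 244460 and 6869388 they were -2.02, -0.24, 0.33 and -2.07 at the low dose and -2.02, -1.26 and -1.02 at the high dose. In both stretches HS + TSA low libraries 1 and 4 and HS + TSA high library 1 lay lowest, the other HS + TSA high libraries lay in between, and the remaining low-dose libraries lay near pollen. The doses overlapped there, and 11 of 551 (2.0%) and 6 of 335 (1.79%) tested genes were called lower, against 5.46% over all genes tested.

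On A07 between 5283 and 5572170, the median ratios were -0.79, -0.54, -0.21 and -0.79 in HS + TSA low and -0.01, -0.13 and -0.16 in HS + TSA high. The high dose lay near the pollen level and the low dose below it, but low library 3 (-0.21) came close to high library 3 (-0.16). HS + TSA low libraries 1 and 4, which were much alike, lay lowest. Of the 226 tested genes there, 26 (11.5%) were higher and 3 (1.33%) lower, against 4.94% and 5.46% over all genes tested. On A06 between 15056166 and 28558207, the median ratio to pollen over the 27 genes with at least 3 CPM was positive in all 7 libraries. This median was 2.19 to 3.24 at the low dose and 0.88 to 1.61 at the high dose, and single genes may differ from it. In this stretch of A06, 16 of 133 tested genes were lower at the high dose. Chromosome A02, shown for comparison, had ratios of 0.03 to 0.11 in HS + TSA low and -0.03 to 0.14 in HS + TSA high. Called genes also had neighbours with the same call slightly more often than genes at large. The next gene was called in the same direction for 6.23% of the higher genes, where 5.01% of all next genes were higher, and for 7.27% of the lower genes, where 5.46% were lower. For lower genes outside C02 these shares were 6.82% and 5.21%.

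**Figure D4:**
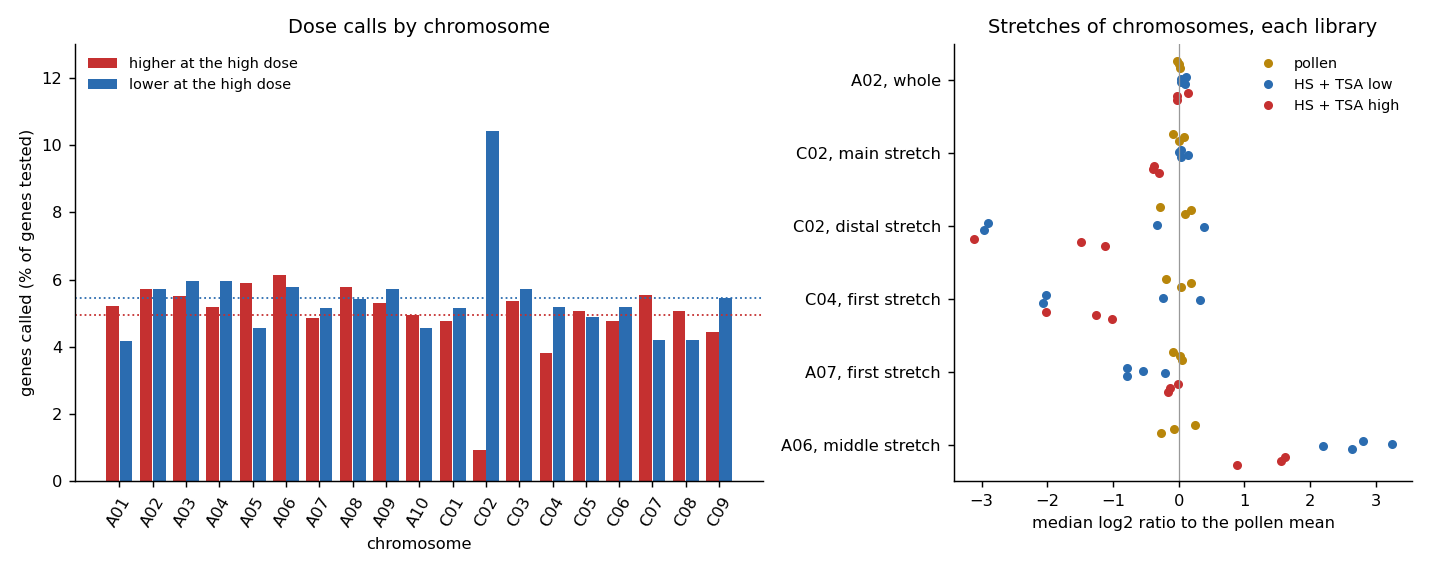
Left, percent of tested genes on each chromosome that were higher (red) or lower (blue) at the high dose, with dotted lines at the 4.94% and 5.46% of all genes. Right, median log2 ratio to the pollen mean in each library over the chromosome stretches described in the text. C02 has 0.930% higher and 10.4% lower genes, and on its main stretch the HS + TSA high libraries lie at -0.39 to -0.30 against 0.00 to 0.14 in HS + TSA low.

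Over all genes, the high dose lay farther from pollen than the low dose in several measures. The root mean square log2(CPM + 1) difference from the pollen mean was 1.145, 1.322, 1.242 and 1.127 in HS + TSA low libraries 1 to 4 and 1.330, 1.422 and 1.542 in HS + TSA high libraries 1 to 3. The highest low-dose library (1.322) and the lowest high-dose library (1.330) nearly met, and the means were 1.21 ± 0.0906 (SD, n = 4) and 1.43 ± 0.106 (SD, n = 3), with p = 0.0571 in an exact two-sided permutation test. The percent of genes at least 4-fold from pollen was 7.66, 10.4, 8.80 and 7.37 at the low dose and 11.2, 12.7 and 14.7 at the high dose. These values did not overlap, with means of 8.55% ± 1.38 (SD, n = 4) and 12.9% ± 1.72 (SD, n = 3). The exact two-sided permutation p was 0.0286, the lowest possible here, and 0.0714 after adjustment over the 5 measures, so that none of them passed.

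The correlation of each library with the pollen mean was 0.852, 0.802, 0.828 and 0.857 in HS + TSA low and 0.800, 0.770 and 0.732 in HS + TSA high, over genes and with HS + TSA low library 2 close to HS + TSA high library 1. Genes with at least 100 CPM in pollen held 32.8%, 30.3%, 33.2% and 33.2% of the CPM at the low dose and 30.0%, 30.3% and 29.5% at the high dose. The doses met at HS + TSA low library 2, and the difference of means was -2.42 percentage points (exact two-sided permutation test, p = 0.0571). Genes with under 1 CPM in pollen held 4.2%, 7.38%, 6.56% and 4.05% at the low dose and 4.76%, 7.54% and 8.67% at the high dose. These overlapped, and the difference of 1.44 percentage points had an exact two-sided permutation p of 0.314. It was 0.601 without HS + TSA high library 3, 0.945 without low library 4 and 2.56 without high library 1. The permutation did not use the pairing by number, and that pairing is uncertain. By deviations from the group means, high library 2 correlated more with low library 3, and high library 3 more with low library 2, than with the library of its own number. The measures also rest on the same libraries and are not independent. Within the 3 pairs of same-numbered libraries, the share in genes with under 1 CPM in pollen was higher at the high dose each time, by 0.56, 0.16 and 2.11 percentage points. The root mean square and the share of genes at least 4-fold from pollen were also higher, and the correlation lower, in 3 of 3 pairs. The share of CPM in genes with at least 100 CPM in pollen was lower in only 2 of 3 pairs, with differences of -2.8, 0.0 and -3.7 percentage points. HS + TSA low libraries 1 and 4 lay nearest to pollen and HS + TSA high library 3 farthest in the root mean square, the correlation and the share of genes at least 4-fold away. The median absolute log2 difference, which gives little weight to large changes, was 0.515 to 0.648 at the low dose and 0.634 to 0.679 at the high dose, and these ranges overlapped. Within pairs it differed by 0.089, -0.006 and 0.084, so it was higher at the high dose in 2 of 3.

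**Figure D5:**
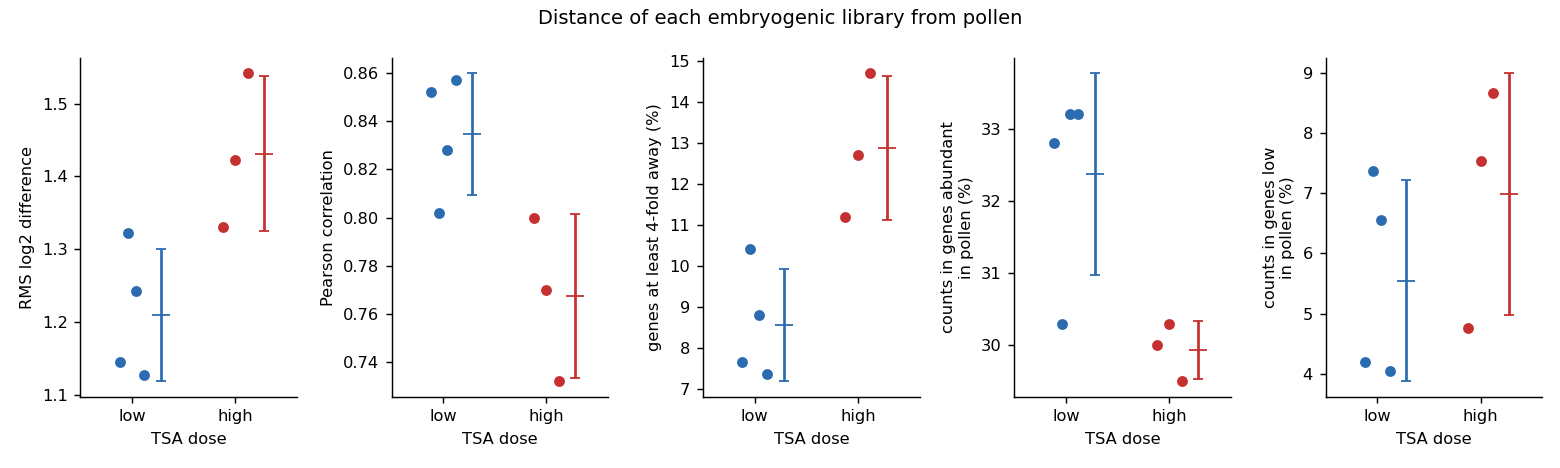
Distance of each HS + TSA library from pollen by 5 measures, with 1 point per library and the mean ± SD of each dose beside the points. None of the axes starts at 0. The high-dose libraries have 11.2% to 14.7% of genes at least 4-fold from pollen against 7.37% to 10.4% at the low dose, and the 2 panels on the right show doses that meet or overlap.

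The called genes moved away from pollen more often than toward it, as did genes at large. Of the 2236 higher genes, pollen lay below both dose means for 50.4%, between them for 33.2% and above both for 16.3%. Of the 2473 lower genes, pollen lay above both for 49.1%, between them for 32.3% and below both for 18.6%. For all tested genes with the high-dose mean above the low-dose mean, pollen lay below both for 53.0% and between them for 15.7%. With the high-dose mean below, pollen lay above both for 45.7% and between them for 17.7%. The 50.4% and 49.1% were thus near the shares of all genes, while the 33.2% and 32.3% between the means were larger. On the log2(CPM + 1) scale, the high dose was nearer to pollen than the low dose was for 29.6% of the higher and 33.0% of the lower genes. Over all genes tested, these shares were 38.5% where the high-dose mean was above the low-dose mean and 45.1% where it was below. The dose contrast and the contrasts with pollen share libraries, so these values stand side by side with no test.

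Each dose was also set against pollen in the same fit. The low dose had 26.4% higher and 17.4% lower genes (43.7% called), and the high dose 27.5% higher and 18.8% lower (46.2% called), by edgeR. Of the 2236 genes higher at the high dose, 745 were higher than pollen at the low dose, 624 lower and 867 neither, while at the high dose 1440 were higher than pollen, 101 lower and 695 neither. Of the 2473 lower genes, 718 were higher than pollen at the low dose, 586 lower and 1169 neither, and at the high dose 184 were higher, 1582 lower and 707 neither. Both lists were chosen on the dose contrast, so their calls against pollen follow in part from that choice. Among the 21949 tested genes with a lower mean at the high dose, 3284 were called below pollen at the low dose. At the high dose 6497 of them were. Among the 23270 tested genes with a higher mean at the high dose, 6481 were called above pollen at the low dose and 9106 at the high dose. Sorting, heat stress, TSA, culture temperature and cell type go together in each contrast with pollen and cannot be told apart, while the dose contrast shares the sort and the heat stress.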

How the data were processed

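RNA from 10 libraries (4 HS + TSA low, 3 HS + TSA high, 3 pollen) was reverse-transcribed with the SMART-seq v4 kit without strand information, so overlapping genes may share reads. Reads were mapped by the authors (STAR, Darmor-bzh genome version 10), who deposited raw counts per gene from featureCounts. The submitters' processing notes name STAR 2.7.10a, Subread 1.5.2 and DESeq2. Of 61170 rows, 1712 exact repeats were dropped. Mates appear to have been counted singly, since 65.8% to 75.2% of nonzero counts are even, and precision from depth covers counting error only. The authors also deposited DESeq2-normalized counts, a scaled signal used only in 1 alternative, gene lengths, and tables of fold changes, standard errors, Wald statistics and p-values, which were not used. No value column was left without a sample.

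Counts were tested with edgeR 4.0.16 in R 4.3.3 (TMM, filterByExpr with a minimum count of 10 and a minimum total of 15, robust quasi-likelihood test, Benjamini-Hochberg adjustment), with all 10 libraries in 1 fit. Standard errors were taken as the log2 fold change over the root of the F statistic. Medians by library use log2(CPM + 0.5) over genes of at least 3 CPM, and distances use a pseudocount of 1. The 5 distances were compared by exact permutation over 35 arrangements. All exact permutations counted HS + TSA low libraries 1 and 4 as separate libraries, although they correlated by 0.9909. Alternatives used limma 3.58.1 and DESeq2 1.42.0, and other steps used matplotlib 3.10.9, scipy 1.17.1, numpy 2.4.6 and pandas 2.3.3 in Python 3.11.15. The edgeR step was tested on simulated counts.

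The comparison, lists and classes were chosen with earlier results of these data known. Gene length classes, chromosome stretches and the settings without HS + TSA high library 1 or the length trend were added after the data were seen. Named genes are the ER stress genes called between the doses and, in each direction, 1 gene with the lowest p and 1 with the largest fold change among called genes without overlap and with a group mean of at least 10 CPM. Replicates are biological replicates per the labels, each pooled over cells, which were sorted in the HS + TSA groups. Deviations from the group means of same-numbered HS + TSA low and HS + TSA high libraries correlated by 0.40, 0.161 and 0.227, each above 0.1, and the libraries were treated as paired by number, although high library 2 correlated more with low library 3 (0.242), high library 3 more with low library 2 (0.25), and low library 4, with no partner, by 0.325 with high library 1. The block fitted low library 4 exactly, so that it added nothing to blocked fold changes. It also tied each pollen library to the HS + TSA libraries of its number, although their deviations correlated by only -0.019 to 0.114.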

Additional observations from a re-analysis of the deposited data

Results flagged for a closer look

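In 22 sets of 4 HS + TSA low values, 2 had 1 library far from the others by Dixon's ratio, and chance gives about 1 in 20. HS + TSA low library 2 had 30.3% of its CPM in genes with at least 100 CPM in pollen, against 32.8% to 33.2% in the other libraries of the group. HS + TSA low library 3 had 21.5 CPM of C03p75120.1_BnaDAR, against 15.3 to 16 CPM in the others, and the fall of this gene at the high dose was called in every fit that left out 1 library.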

How the results depend on the processing

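The counts of 2236 higher and 2473 lower genes moved with the setting. They were 4298 and 3894 with DESeq2, 456 and 462 in a test against a 1.5-fold change, 487 and 498 at an adjusted p of 0.01, and 1178 and 1610 with HS + TSA low libraries 1 and 4 summed. Leaving both out gave 667 and 1366. Only the 7 HS + TSA libraries gave 1489 lower genes, and removing the length trend gave 1424. The pairing by replicate block gave 1169 higher genes. Leaving out 1 library at a time gave 905 to 3207 higher and 1143 to 3316 lower genes. Without HS + TSA low library 1, 905 and 1143 were called, without low library 3 1646 lower, without low library 4 1392 higher, without HS + TSA high library 2 1049 and 1367, and without high library 3 1139 and 1309. Other scalings moved the median of all genes by less than 0.1.

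Among the classes, higher genes under 0.1 CPM in pollen numbered 131 with the block and 69 without low libraries 1 and 4 (116 to 342 over single libraries left out). Higher genes of at least 20 exons numbered 103, 62 and, without the length trend, 54 (72 to 186). Lower genes of at least 100 CPM in pollen numbered 169 without low libraries 1 and 4 and 152 without the length trend (134 to 278), and lower genes of 1 exon 168 and 160 (154 to 412). Lower genes of C02 numbered 119 to 245 over single libraries left out. The replicate block changed 2 calls of named genes, as given with them.

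The share of genes at least 4-fold from pollen was 4.32 percentage points higher at the high dose. The difference was 5.76 with a pseudocount of 0.1, 2.73 without the genes called between the doses, 4.33 with thinned counts and 4.45 outside C02 and the ends of C04 and A07, with exact permutation p of 0.0571 to 0.0857, and 3.42 to 5.14 over single libraries left out. With 3 against 3 or 4 against 2 libraries no p under 0.05 is possible. The correlation with pollen differed by -0.0772 without the length trend (exact permutation p = 0.0286), by -0.137 over genes of at least 10 CPM, by -0.0414 without the called genes, and by -0.0836 to -0.0499 over single libraries left out. Without the called genes the root mean square difference fell from 0.223 to 0.141 and that of the share in abundant genes moved from -2.42 to -1.39. The difference in the share of genes with under 1 CPM in pollen ran from 0.601 to 2.56 over single libraries left out, and was 0.704 over genes of at least 10 CPM and 0.69 without the called genes. The cause of these changes was not tested.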

Other observations

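The number of genes detected did not separate the doses. Genes of at least 1 CPM numbered 35187 to 36571 in HS + TSA low and 35489 to 36481 in HS + TSA high libraries. Genes that overlap another gene made up 5.14% of the higher and 6.39% of the lower genes, against 6.38% of the genes tested. On scaffolds outside the 19 chromosomes, 14 of 501 tested genes (2.79%) were higher and 29 (5.79%) lower at the high dose. Over all genes tested, 4.94% were higher and 5.46% lower, so the lower share was near that of all genes.

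The HS + TSA libraries fell into sets that cross the doses. Deviations of HS + TSA high library 1 from its group mean correlated by 0.40 and 0.325 with those of HS + TSA low libraries 1 and 4, and by -0.292 and -0.324 with those of low libraries 2 and 3. HS + TSA high libraries 2 and 3 showed the opposite signs. Deviations from a group mean cancel out over the group, so these opposite signs follow in part from the values of high library 1. What these sets share was not tested.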
